A study of Mus musculus with 16 samples.

Results

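Ms4a1, Cd79a, Cd79b, Pax5, Spib, Fcmr, Cr2, Fcer2a and Cd22 are genes by which mature B cells are recognised. These 9 B cell identity genes were taken by name from the 54752 gene IDs counted in 16 RNA sequencing libraries of mouse iWAT, the white fat depot under the skin of the groin. Each of the 4 genotypes had 4 libraries, from C57BL/6 mice that the labels describe as 90 days old and female. WT mice had neither mutation. Lepob/+ mice had 1 functional copy of the leptin gene and 1 ob allele, which encodes no active leptin. SOD1G93A mice carried a mutant human SOD1 transgene that is used as a model of amyotrophic lateral sclerosis, and SOD1G93A-Lepob/+ mice carried both. Both alleles are carried in the germline and are not limited to fat or to B cells. All 9 genes passed the filter on low counts, by which 19736 genes were tested.

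B cells are the lymphocytes that make antibodies. Each carries a B cell receptor, a membrane immunoglobulin bound to the signalling chains CD79A and CD79B, and Pax5 holds the cell in the B lineage. Mature B cells rest mainly in the follicles of lymph nodes and spleen, beside zones of T cells, and leave this resting programme when they become germinal centre cells or plasma cells. White fat holds few B cells of its own, but the inguinal lymph node lies inside the iWAT pad. Whether the node was taken out before extraction is not given in the sources used here. In bulk RNA, fewer B cells and less of these transcripts per cell cannot be told apart.

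Some libraries stood apart before any comparison. Levels are given in CPM, the counts of a gene scaled to the size of its library after TMM normalisation, and log2 values with a prior count of 1. A list of 6 genes that mark the stroma and the high endothelial venules of lymph nodes, with no gene of the B cell or T cell lists in it, fell into 6 libraries at a mean of 4.06 to 5.03 log2 CPM and 10 at -3.32 to -1.98. The 6 libraries, called lymph node rich below, were WT 1 and 2, Lepob/+ 3, and SOD1G93A 1, 2 and 4, and none was SOD1G93A-Lepob/+. Glycam1, a mucin of the venules through which lymphocytes enter lymph nodes, was at 203 to 614 CPM in them and at no more than 0.0603 CPM in the others. Fut7 of the same list overlapped, at 0.656 to 7.97 CPM in the 6 libraries and 0.181 to 2.01 CPM in the 10. Adipoq, the adipocyte hormone, was at 1209 to 1547 CPM in the 6 libraries and at 1335 to 3262 CPM in the 10, so adipose RNA was abundant in every library. Since this split follows measured values, its libraries are given one by one or as ranges and were not tested against each other. Lepob/+ 4 held 44647 CPM of the muscle gene Acta1, and the library labelled SOD1G93A-Lepob/+ 3 had no count of Xist and 1756 counts of 4 Y chromosome genes, against the label of a female. Library totals ran from 36.8 to 61.9 M counts (M for mega). Replicates are separate mice as far as the labels number them.

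Promoter windows were searched for letter patterns that the genes share, which is independent of their levels. RefSeq windows (GRCm38.p6) of 250 bases before to 50 after a start site were at hand for 7 of them, all but Ms4a1 and Cd79b, with 9 windows in all. The E box CAGGTG, a letter pattern that E proteins such as the B cell factor E2A can bind, was found on either strand in windows of 5 members (Cd79a, Cr2, Fcer2a, Fcmr and Cd22), 5 of 9 windows, against 20.2% of 32851 windows of all genes. The related E box CAGCTG was in windows of 2 members (16.3% of all windows), and GAGGAA, the core of sites for PU.1 and Spi-B, in windows of 2 (28.3%). The palindromic pattern of EBF was in the window of Cd22 only (0.904%), and neither ATTTGCAT, the octamer (1.74%), nor the consensus pattern of NF-kappaB (0.155%) was in any. A match is a description of letters and not a bound site, the windows hold matches on both strands, and none of these 6 patterns contains another. The 3 stretches shown each end before a RefSeq start site, and carry the E box CAGGTG or its complement CACCTG in capitals, with the GAGGAA core (here TTCCTC) and CAGCTG also in capitals where they occur. They are printed 5′ to 3′ on the strand of the gene, for Cd79a at chr7:24897247-24897380 on the plus strand, for Cr2 at chr1:195176720-195176969 on the minus strand and for Fcer2a at chr8:3690862-3691111 on the minus strand. The Fcer2a stretch belongs to 1 of 3 windows of that gene and lies inside the gene as GENCODE annotates it (3681737 to 3694175), and the window at the outer start held none of the patterns.
Cd79a: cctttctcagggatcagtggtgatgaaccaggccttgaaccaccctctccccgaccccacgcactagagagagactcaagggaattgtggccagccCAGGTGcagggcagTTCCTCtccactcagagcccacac
Cr2: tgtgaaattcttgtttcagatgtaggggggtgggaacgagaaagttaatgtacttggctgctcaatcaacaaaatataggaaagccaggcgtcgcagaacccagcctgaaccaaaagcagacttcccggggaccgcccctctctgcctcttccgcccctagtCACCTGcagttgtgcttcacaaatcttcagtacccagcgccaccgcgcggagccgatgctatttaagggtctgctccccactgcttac
Fcer2a: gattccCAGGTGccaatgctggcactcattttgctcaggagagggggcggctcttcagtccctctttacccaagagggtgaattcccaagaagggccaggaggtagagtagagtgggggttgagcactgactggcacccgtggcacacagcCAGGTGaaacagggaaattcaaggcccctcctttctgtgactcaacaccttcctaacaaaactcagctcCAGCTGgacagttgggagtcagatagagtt

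The signalling chains of the B cell receptor come first by role. Cd79a (ENSMUSG00000003379, GRCm38 chromosome 7, 24897381 to 24902197) encodes Ig-alpha, which starts the signal when the receptor meets antigen. Cd79a was found at 157, 119, 1.06 and 3.83 CPM in WT 1 to 4 and at 1.53, 1.17, 298 and 0.566 CPM in Lepob/+ 1 to 4. The values were 179, 343, 0.829 and 212 CPM for SOD1G93A 1 to 4, while SOD1G93A-Lepob/+ 1 to 4 had 1.31, 2.6, 0.771 and 1.15 CPM. Both high WT libraries, 1 Lepob/+ library and 3 SOD1G93A libraries are those rich in lymph node transcripts, and the other 10 libraries were at 0.566 to 3.83 CPM. Cd79b (ENSMUSG00000040592, chromosome 11) encodes Ig-beta, the partner chain. Cd79b was found at 104, 84.4, 1.83 and 3.54 CPM in WT 1 to 4 and at 2.09, 2.32, 195 and 5.73 CPM in Lepob/+ 1 to 4. SOD1G93A 1 to 4 held 119, 238, 1.9 and 153 CPM of it, and SOD1G93A-Lepob/+ 1 to 4 held 2.41, 4.35, 1.36 and 1.57 CPM. The lowest of the 6 lymph node rich libraries, WT 2, stood 14.7 times above the highest of the others, which for Cd79b was Lepob/+ 4. For Cd79a the same ratio was 31.1. Per genotype the mean of Cd79a was 70.3 ± 79.9 CPM for WT (SD, n = 4 here and for the next), 75.3 ± 148 CPM for Lepob/+ and 184 ± 141 CPM for SOD1G93A, each with an SD close to or above the mean. For SOD1G93A-Lepob/+ it was 1.46 ± 0.794 CPM.

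The transcription factors followed the same libraries. Pax5 (ENSMUSG00000014030, chromosome 4) commits cells to the B lineage and represses genes of other lineages. Pax5 was found at 54.6, 42.6, 0.542 and 1.75 CPM in WT 1 to 4 and at 0.925, 1.25, 115 and 0.566 CPM in Lepob/+ 1 to 4. In the same order of replicates, it stood at 78, 143, 0.19 and 89.2 CPM in SOD1G93A and at 0.598, 1.72, 0.295 and 0.365 CPM in SOD1G93A-Lepob/+. Its exons overlap 2 antisense genes, 5730488B01Rik over 636 bases and Gm12462 over 125 bases, and since the strand setting of the counting is not given in the sources used here, reads of these genes cannot be told apart from its own. Spib (ENSMUSG00000008193, chromosome 7) encodes Spi-B, an ETS factor of mature B cells that plasmacytoid dendritic cells use too. Spib was found at 67.8, 55.6, 1.16 and 2.06 CPM in WT 1 to 4 and at 0.764, 0.929, 139 and 3.2 CPM in Lepob/+ 1 to 4. The values were 71.6, 151, 0.535 and 94.3 CPM for SOD1G93A 1 to 4, while SOD1G93A-Lepob/+ 1 to 4 had 0.908, 1.12, 0.952 and 0.365 CPM. In Lepob/+ 4, where Pax5 was at 0.566 CPM, Spib stood at 3.2 CPM, the highest value among the 10 other libraries. The plasmacytoid gene Siglech was at 1.03 CPM in that library and at 1.09 to 3.81 CPM in the remaining libraries that were not lymph node rich.

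Of the surface receptors, Cr2 was the rarest. Cr2 (ENSMUSG00000026616, chromosome 1) encodes complement receptor 2 (CD21), carried by mature B cells and follicular dendritic cells. Cr2 was found at 25.1, 17.6, 0.0775 and 0.661 CPM in WT 1 to 4 and at 0.181, 0.196, 39.1 and 0 CPM in Lepob/+ 1 to 4. SOD1G93A 1 to 4 held 31.5, 55, 0.0345 and 33.3 CPM of it, and SOD1G93A-Lepob/+ 1 to 4 held 0.111, 0.15, 0.159 and 0 CPM. It had no count in Lepob/+ 4 and SOD1G93A-Lepob/+ 4, which allows up to 0.0999 and 0.0843 CPM there (3 counts, for counting error only). Fcer2a (ENSMUSG00000005540, chromosome 8) encodes CD23, the low-affinity IgE receptor of follicular B cells. Fcer2a was found at 78.2, 59.1, 0.723 and 1.93 CPM in WT 1 to 4 and at 0.463, 0.415, 136 and 0 CPM in Lepob/+ 1 to 4. In the same order of replicates, it stood at 99.8, 172, 0.242 and 119 CPM in SOD1G93A and at 0.487, 0.325, 0.385 and 0.477 CPM in SOD1G93A-Lepob/+. The same muscle rich library, Lepob/+ 4, had no count of it. Fcmr (ENSMUSG00000042474, chromosome 1) encodes the receptor for the Fc part of IgM. Fcmr was found at 56.6, 44.8, 0.672 and 4.28 CPM in WT 1 to 4 and at 0.865, 0.318, 109 and 0 CPM in Lepob/+ 1 to 4. The values were 69.2, 179, 1 and 95.5 CPM for SOD1G93A 1 to 4, while SOD1G93A-Lepob/+ 1 to 4 had 0.465, 0.824, 0.317 and 0.618 CPM. WT 4 held the highest value of Fcmr among the 10 other libraries, 10.5 times below the lowest lymph node rich one.

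Cd22 and Ms4a1 complete the list. Cd22 (ENSMUSG00000030577, chromosome 7) encodes a sialic acid binding receptor that dampens signals of the B cell receptor. Cd22 was found at 75.4, 55.8, 1.19 and 3.86 CPM in WT 1 to 4 and at 1.23, 0.855, 204 and 0.766 CPM in Lepob/+ 1 to 4. SOD1G93A 1 to 4 held 102, 228, 0.777 and 140 CPM of it, and SOD1G93A-Lepob/+ 1 to 4 held 1.02, 1.52, 0.748 and 1.1 CPM. Its exons overlap the antisense gene Gm29439 over 479 bases. Ms4a1 (ENSMUSG00000024673, chromosome 19) encodes CD20, the membrane protein that antibody therapies use to remove B cells. Ms4a1 was found at 59.6, 43.7, 0.62 and 1.98 CPM in WT 1 to 4 and at 1.03, 0.367, 128 and 0.4 CPM in Lepob/+ 1 to 4. In the same order of replicates, it stood at 69.7, 181, 0.57 and 105 CPM in SOD1G93A and at 0.332, 1.2, 0.544 and 0.421 CPM in SOD1G93A-Lepob/+. SOD1G93A 2 was highest for all 9 members, and WT 2 was the lowest of the 6 lymph node rich libraries for all 9. Outside these 6, members rested on 0 to 174 counts per library and gene, so that single values there carry large counting error.

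**Figure D1:**
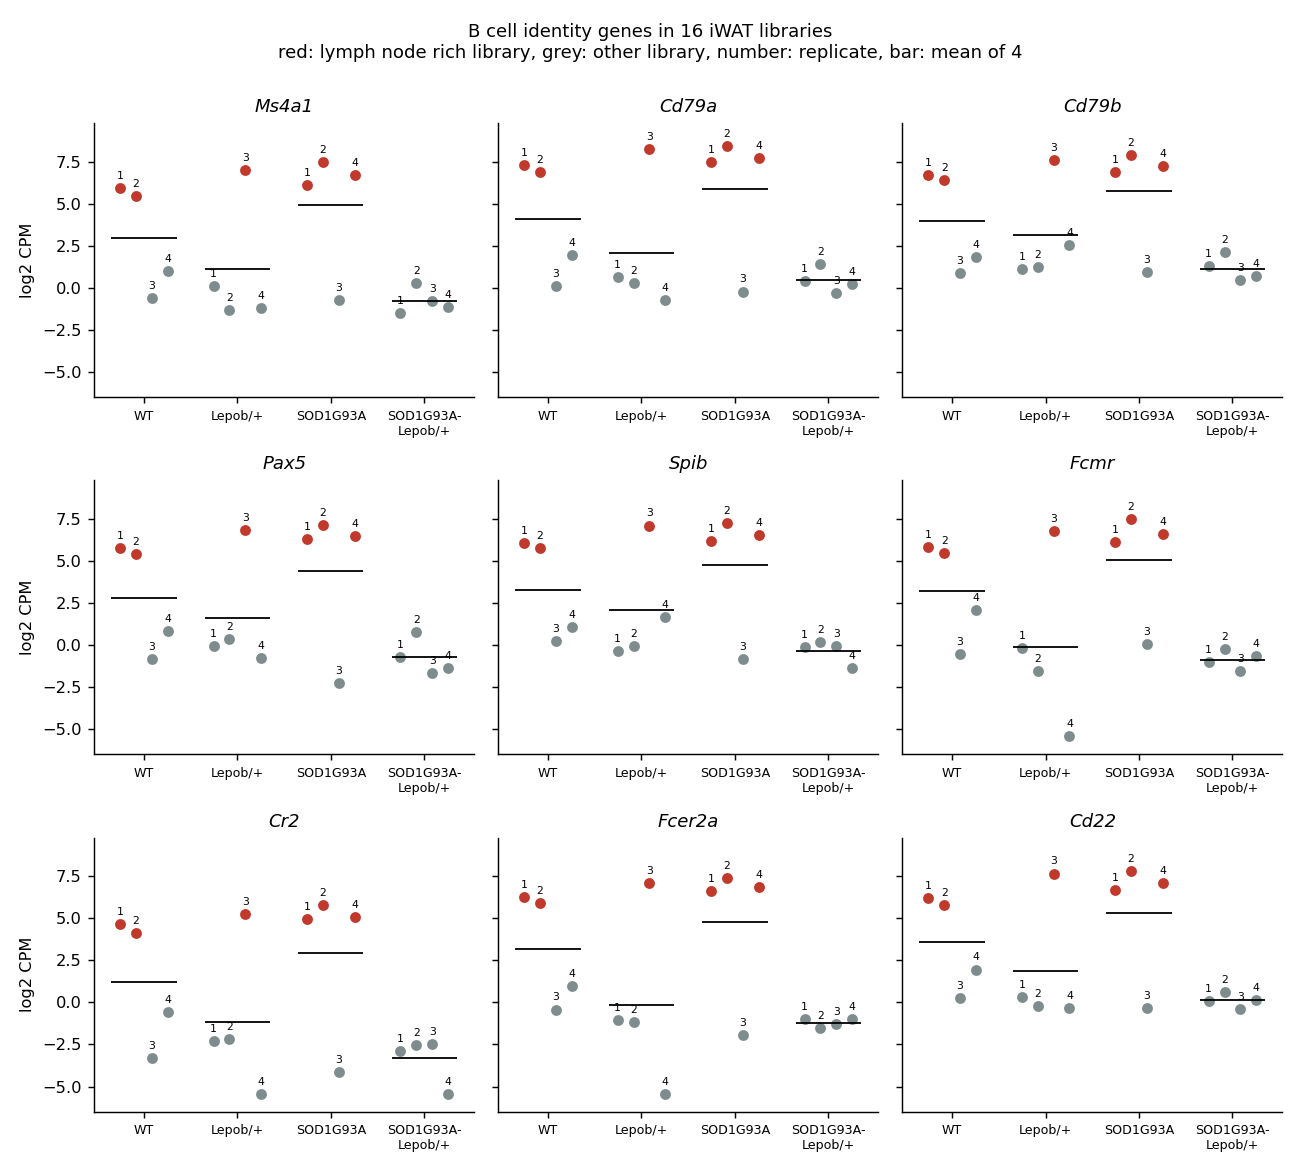
Log2 CPM of each of the 9 B cell identity genes (1 panel per gene) in the 4 libraries of each genotype, with the replicate number above each point, lymph node rich libraries in red, other libraries in grey and a bar at the mean of 4. In every panel the 6 red points lie above all 10 grey points, and SOD1G93A-Lepob/+ has no red point.

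Compared per length of transcript, in CPM per kilobase of exon, the order of the members was nearly fixed. In the 6 lymph node rich libraries Cd79a came first with 33.1 to 36.5% of the summed level of the 9 genes, Cd79b second with 23.4 to 25.6% and Fcmr after them with 10.9 to 14.5%. Spib, at 7.19 to 8.42%, and Fcer2a, at 7.67 to 9.3%, exchanged the next ranks between libraries and overlapped. Cd22 (4.81 to 7.03%), Ms4a1 (3.07 to 4.11%), Pax5 (2.08 to 2.54%) and Cr2 (0.839 to 1.12%) kept the ranks 6 to 9. The ratio of Cd79a to Cd79b in CPM was 1.39 to 1.53 in these 6 libraries.

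The make-up differed in the 10 libraries with few B cell transcripts. There the ratio of Cd79a to Cd79b ran from 0.0988 to 1.08, below all 6 lymph node rich libraries. Relative to the mean log2 CPM of the 9 members in the same library, Cd79b stood 0.60 to 4.21 higher in the 10 libraries and 0.48 to 0.70 higher in the 6. For Cr2 the difference from that mean was -4.33 to -1.56 in the 10 and -1.78 to -1.39 in the 6. Cd79b rested on 56 to 174 counts in the 10 libraries and Cr2 on 0 to 25.

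T cell genes gave the matched reading of the other main lymphocyte. The list held 18 genes, among them Cd3d, Cd3e and Cd3g of the T cell receptor complex, the kinase Lck, the transcription factor Tcf7 and the coreceptor Cd8a. All 18 were higher in every lymph node rich library than in any other, as were the 9 B cell identity genes. The share of all genes that separate these libraries was not counted, so the counts have no background beside them. Summed over the list, T cell genes gave 928 to 1869 CPM in the 6 libraries and 19.3 to 43.2 in the 10, and the 9 B cell genes gave 523 to 1690 and 5.53 to 23.9 CPM. Between the lowest and the highest of the 6, members differed 2.72 to 4.14 times (median 3.12) and T cell genes 1.73 to 2.46 times (median 2.01), so the ranges of the lists did not overlap. Another 20 genes of B cells and their receptor signalling differed 2.13 to 16 times (median 2.63), with Bach2, named here after its values were seen, as the gene with the widest range. The libraries were sorted by measured values, so these ranges carry no test.

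**Figure D2:**
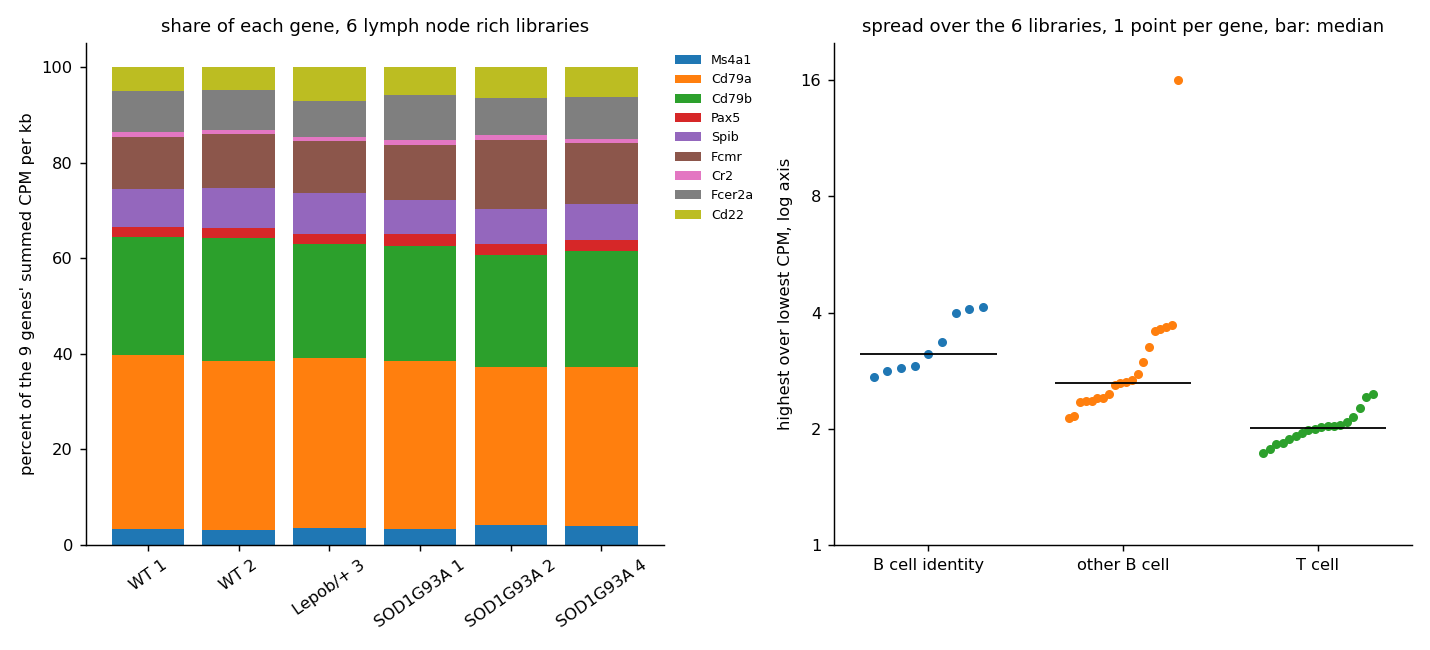
Left, share of each B cell identity gene in the summed CPM per kilobase of the 9 genes in the 6 lymph node rich libraries, with Cd79a at 33.1 to 36.5% of each bar. Right, for each gene the highest over the lowest CPM among these 6 libraries on a log axis, with 1 point per gene and a bar at the median (3.12 for B cell identity, 2.63 for the other B cell genes, 2.01 for T cell genes).

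The difference between the mean log2 CPM of the 9 members and that of the 18 T cell genes placed the WT libraries lowest among the 6. It was 0.19 in WT 1 and 0.23 in WT 2, against 0.47 in SOD1G93A 1, 0.95 in SOD1G93A 2, 1.06 in SOD1G93A 4 and 1.02 in Lepob/+ 3. Only the order and distance of these values can be read, since the sign depends on which genes are averaged: with summed CPM the same libraries ran from -0.88 in WT 1 to -0.03 in SOD1G93A 4. Against Cd3e alone, all 9 members were lower in both WT libraries than in any of the other 4. The 9 ratios share Cd3e as denominator and the members move together, so they are not 9 separate results. The share of all genes with this order was not counted. Ms4a1, for example, was at a log2 ratio of -0.22 and -0.16 to Cd3e in WT and at 0.18 to 0.97 in the other 4 libraries, and Cr2 at -1.48 and -1.47 against -0.97 to -0.69. In CPM, Cd79a was 2.27 and 2.43 times Cd3e in WT 1 and 2, 2.89, 3.5 and 3.95 times in SOD1G93A 1, 2 and 4, and 4.12 times in Lepob/+ 3. With 2, 3 and 1 lymph node rich libraries per genotype, chosen by their content, these are values of single libraries and do not compare genotypes. The 10 other libraries spanned -1.82 to 0.33 in the difference of B cell and T cell means and overlapped the WT libraries, with Lepob/+ 4 lowest and WT 4 highest. Among T cell genes the ratio of Cd4 to Cd8a also separated the libraries, at 0.689 to 1.01 in the 6 and 1.47 to 13 in the 10 (Cd4 was named after its values were seen). In the 10, Cd8a rested on 8 to 72 counts and Cd4 on 53 to 205, and the ratio of 13 came from Lepob/+ 2, with 8 counts of Cd8a. The share of gene pairs with such a separation was not counted.

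**Figure D3:**
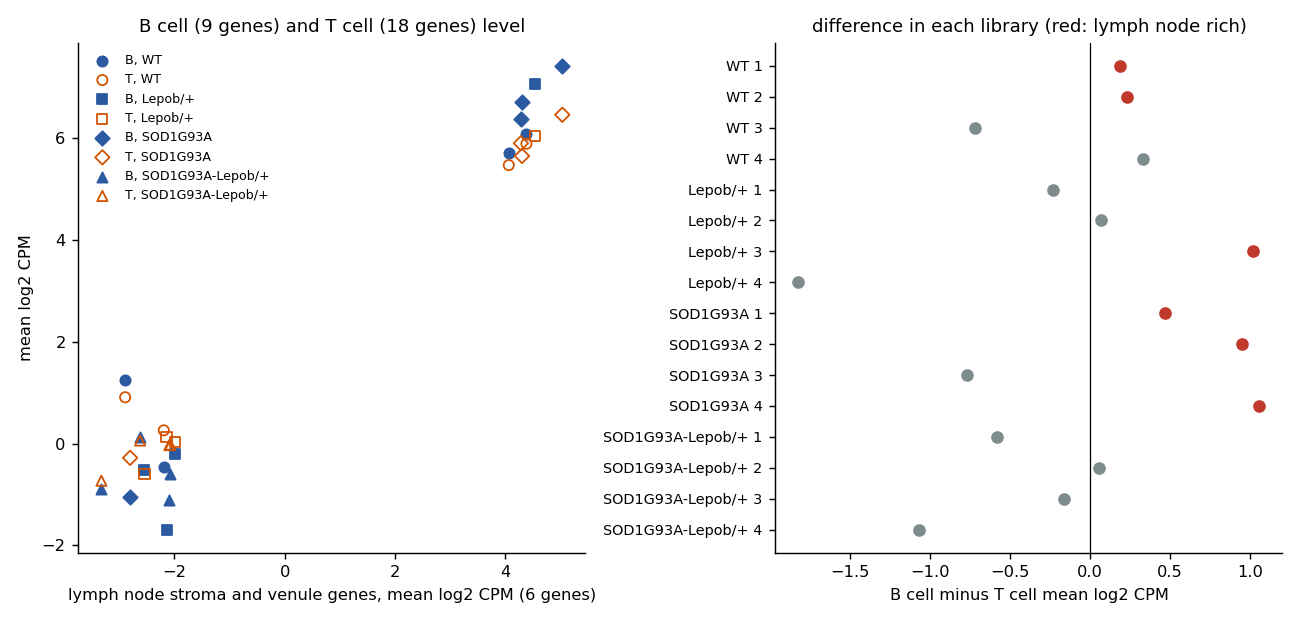
Left, mean log2 CPM of the 9 B cell identity genes (filled) and 18 T cell genes (open) in each library against the mean log2 CPM of 6 lymph node stroma and venule genes, with 1 symbol shape per genotype. Right, B cell minus T cell mean for each library, lymph node rich libraries in red, with WT 1 and 2 at 0.19 and 0.23 and the other 4 red points at 0.47 to 1.06.

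The comparison of SOD1G93A-Lepob/+ with SOD1G93A asked what a loss of 1 leptin copy changes in carriers of the transgene. All 9 B cell identity genes were far lower on average in SOD1G93A-Lepob/+, with log2 fold changes of -8.09 to -5.72 (median -6.98) and SEs of 1.86 to 2.62, while SOD1G93A 3 was about as low as the SOD1G93A-Lepob/+ libraries. Cd79a gave -6.98 ± 2.35 (SE), Ms4a1 -7.15 ± 2.29 and Cr2 -8.09 ± 2.62, each from 4 libraries per genotype. None of the 9 passed the adjusted threshold of 0.05 (adjusted p = 0.261 for each, edgeR with Benjamini-Hochberg over 19736 genes) and the share of all genes tested that passed was 0.0%. At an unadjusted p under 0.05 stood 9 of 9 members and 16.5% of all genes. Through SOD1G93A 3 the ranges of the genotypes overlapped for 8 of 9 members, the exception being Fcmr, at 1 CPM in that library and at most 0.824 CPM in SOD1G93A-Lepob/+. Ranges did not overlap for 7.18% of all genes tested, and for 3.6% with SOD1G93A-Lepob/+ as the lower. Without SOD1G93A 3 the adjusted p of the members was 0.085 to 0.0873 in edgeR, and without the library labelled SOD1G93A-Lepob/+ 3 it was 0.379 with log2 fold changes of -8.34 to -5.52.

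The outcome of that comparison depended on the tool. DESeq2, fitted on the libraries of these 2 genotypes alone, called 9 of 9 members lower, with adjusted p from 5.17e-08 to 3e-05 and about the same fold changes (-8.15 to -5.73), against 8.11% of the 21936 genes that received an adjusted p. Fitted on all 16 libraries, DESeq2 called 9 of 9 as well, against 2.85% of 19841 genes. The T cell list behaved alike: edgeR called 0 of 18 with a median log2 fold change of -5.97 and 18 of 18 at an unadjusted p under 0.05, and DESeq2 on these genotypes called 18 of 18. With the level of the 6 stroma and venule genes as a covariate in edgeR, the members' median log2 fold change was -0.39 (range -1.28 to 0.01), and 0 of 9 stood at an unadjusted p under 0.05 (3.98% of all genes). The covariate splits the libraries as all 9 members do, and no SOD1G93A-Lepob/+ library was lymph node rich. The fold change thus shrinks in part by construction, and the cause of the difference was not tested.

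Between SOD1G93A and WT, the comparison of the transgene by itself, the members were higher on average but well within the spread of the mice. Log2 fold changes ran from 1.33 ± 1.63 (SE) for Spib to 1.79 ± 1.72 for Cd22 (median 1.48), with adjusted p = 0.998 for each in edgeR, and 0 of 9 passed, against 0.0% of all genes. No member stood at an unadjusted p under 0.05, where 2.56% of all genes did. Both genotypes had high and low libraries, 3 high and 1 low in SOD1G93A and 2 of each in WT, and their ranges overlapped for 9 of 9 members (2.05% of all genes had ranges that did not). T cell genes had a median log2 fold change of 0.90, and 18 of 18 were higher on average with 0 at an unadjusted p under 0.05. With the stroma and venule covariate the members' median was -0.29, and 8 of 9 had a fold change below 0.

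Lepob/+ against WT asked what the ob allele does without the transgene. Member fold changes were near 0, from -0.14 ± 1.84 (SE) for Cr2 to 0.60 ± 1.68 for Cd22 on the log2 scale (median 0.10), with adjusted p = 1 in edgeR. No member was called, as with 0.0% of all genes, and none stood at an unadjusted p under 0.05, where 4.37% of genes did. This average came from 1 library: Lepob/+ 3 held 298 CPM of Cd79a and the other 3 Lepob/+ libraries 0.566 to 1.53. Without Lepob/+ 3 the members' log2 fold changes were -6.82 to -3.87 (median -5.45), all 9 at an unadjusted p under 0.05 (11.4% of all genes in that fit) and 0 called (0.0%), with an adjusted p of 0.356 to 0.374 in edgeR. B cell and T cell genes parted here in sign but not beyond their errors. Of 9 members 7 had a fold change above 0, while 18 of 18 T cell genes had one below 0 (median -0.61), and no gene of either list stood at an unadjusted p under 0.05.

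The remaining comparisons share libraries with those above and are set beside them. Against Lepob/+, the SOD1G93A-Lepob/+ libraries gave member log2 fold changes from -6.49 ± 2.48 (SE) for Cr2 to -4.40 ± 1.75 for Cd79b (median -5.62), with adjusted p = 0.597 in edgeR and 0 of 9 called, against 0.0% of all genes. Unadjusted, 9 of 9 had a p under 0.05, and 8.24% of all genes did. Without Lepob/+ 3 the median was 0.04 and 0 of 9 had such a p (7.42% of all genes). DESeq2 on these genotypes gave no p for any member. The interaction, which asks whether the difference that goes with the ob allele is the same in carriers and non-carriers of the transgene, ran from -7.95 ± 3.09 for Cr2 to -5.80 ± 2.31 for Cd79b (median -7.32, adjusted p = 0.564 in edgeR, 0 of 9 called against 0.0% of all genes). At an unadjusted p under 0.05 stood 9 of 9 members and 7.98% of all genes, and without Lepob/+ 3 the median was -1.69 with 0 of 9 (5.25% of all genes). With the stroma and venule covariate the medians were -0.20 and -0.05, again with 0 of 9 at an unadjusted p under 0.05 (8.84 and 5.69% of all genes). These smaller values too are in part by construction, as the covariate splits the libraries as the members do.

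**Figure D4:**
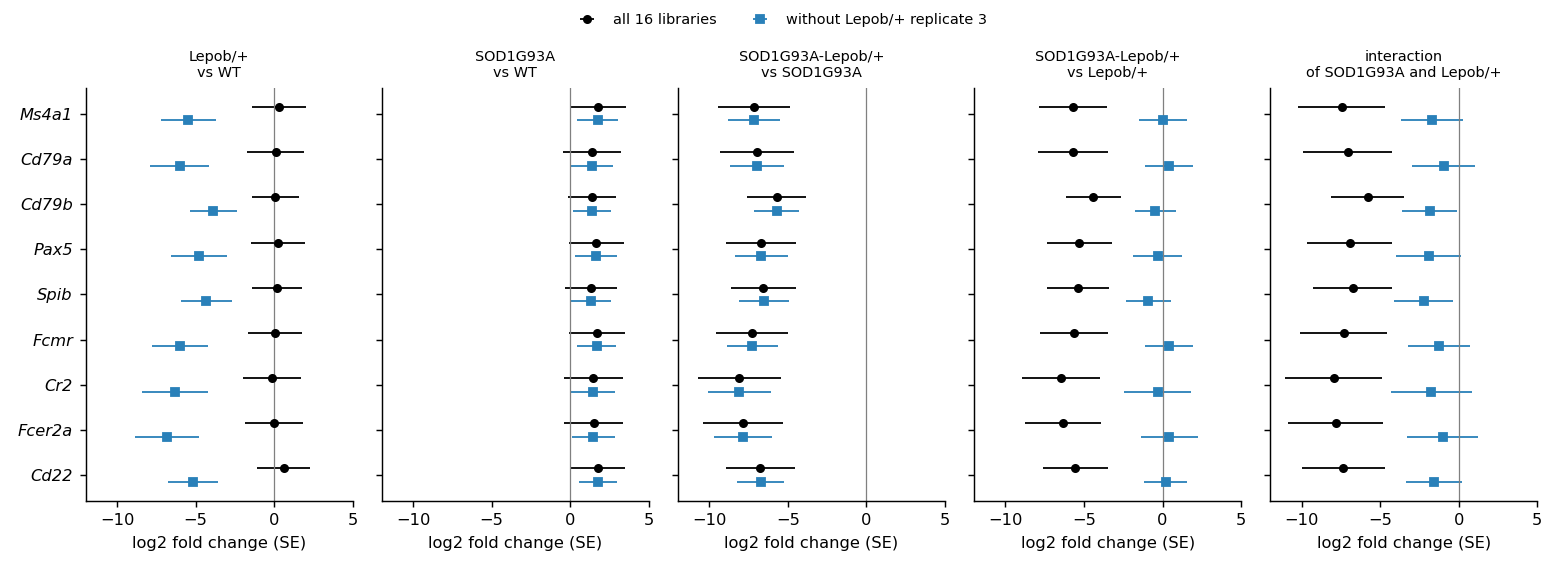
Log2 fold change and its SE for each of the 9 genes in the 5 comparisons, from the edgeR fit of all 16 libraries (black circles) and from the fit without Lepob/+ 3 (blue squares). Leaving out this library moved the median from 0.10 to -5.45 in Lepob/+ against WT, from -5.62 to 0.04 in SOD1G93A-Lepob/+ against Lepob/+ and from -7.32 to -1.69 in the interaction, while SOD1G93A-Lepob/+ against SOD1G93A went from -6.98 to -6.97.

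Other genes of the B lineage followed the members in part. Of the 20 further B cell and receptor signalling genes, 16 separated the 6 lymph node rich libraries from the rest, a count for which the share of all genes was not taken. H2-Ob, a chain of the protein H2-O that moderates antigen loading in B cells, was at 65.9 to 173 CPM in the 6 and 1.03 to 5.9 CPM in the 10. Cd37, a tetraspanin that macrophages express too, was at 97 to 227 and 11.2 to 47.2 CPM. In SOD1G93A-Lepob/+ against SOD1G93A, 20 of 20 had a lower mean (median log2 fold change -3.54), 19 of 20 stood at an unadjusted p under 0.05 (16.5% of all genes) and 0 were called by edgeR (0.0%). DESeq2 on these genotypes called 18 of 20, against 8.11% of genes with an adjusted p. The median over all genes tested in that comparison was 0.

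The heavy chain genes split. Ighd, the IgD chain of naive mature B cells, was at 176 to 572 CPM in the 6 lymph node rich libraries and 3.15 to 12.4 CPM in the 10. Ighm, the IgM chain that plasma cells secrete as well, overlapped between them, at 398 to 1174 and 148 to 507 CPM. The ratio of Ighm to Ighd was 1.87 to 2.26 in the 6 libraries and 23 to 110 in the 10, and that of Ighm to Cd79a 2.66 to 3.42 and 73.4 to 657. Ighm was at 148 CPM or more in libraries where Cd79a was at 0.566 to 3.83 CPM. Between SOD1G93A-Lepob/+ and SOD1G93A, Ighm had a log2 fold change of -1.23 (SE 0.51, edgeR adjusted p = 0.267) and Ighd of -6.23 (SE 1.88, adjusted p = 0.261), neither past the threshold in edgeR. DESeq2 on these genotypes called 1 of the 2, with adjusted p of 1.15e-06 and 0.0621, against 8.11% of genes with an adjusted p.

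**Figure D5:**
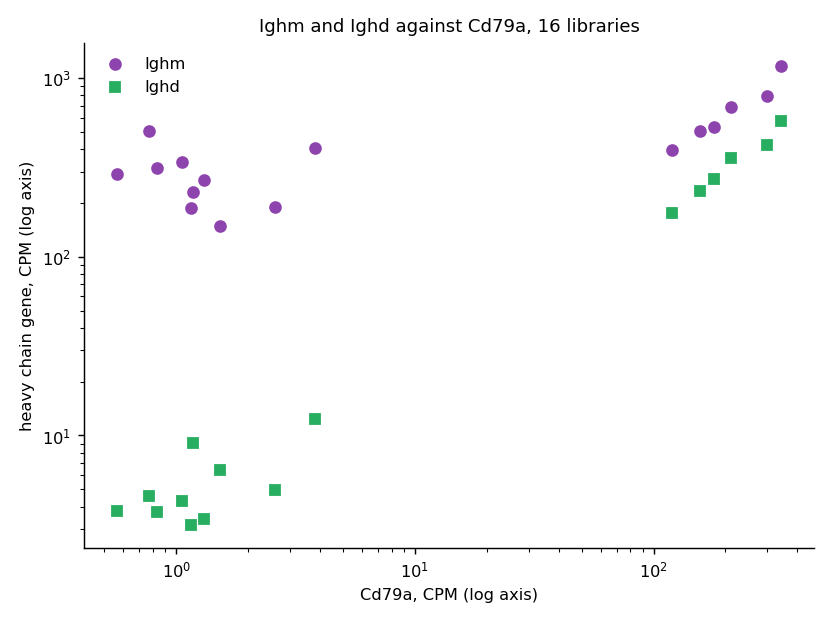
CPM of Ighm (circles) and Ighd (squares) against CPM of Cd79a in 16 libraries, both axes log scaled. At low Cd79a (0.566 to 3.83 CPM) Ighm lies at 148 to 507 CPM and Ighd at 3.15 to 12.4 CPM, and in the 6 libraries with high Cd79a Ighm lies at 398 to 1174 CPM and Ighd at 176 to 572 CPM.

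Genes of later B cell stages showed this pattern only in part. Of 6 germinal centre genes, Bcl6 (43.4 to 136 CPM) and S1pr2 (17 to 42.3 CPM) were present in all 16 libraries and had no higher level where the members were high, while Gcsam was at 1.8 to 6.56 CPM in the 6 lymph node rich libraries and 0.301 to 1.15 CPM in the 10. Of the plasma cell list, Xbp1, Sdc1 and Irf4 did not follow the members, with Xbp1 for example at 145 to 288 CPM in the 6 libraries and 185 to 307 CPM in the 10. In the 10, Irf4 was at 27.7 to 72.2 CPM and Sdc1 at 37.6 to 100 CPM, and which cells hold these transcripts was not tested. Mzb1 and Tnfrsf17 were named after their values were seen. Mzb1 followed the members, at 8.58 to 23.3 CPM in the 6 libraries and 0.133 to 1.17 CPM in the 10. Tnfrsf17 overlapped, at 0.351 to 1.27 and 0.3 to 2.37 CPM. Jchain, which links IgM into polymers and was named after its values were seen, reached 27.8 CPM in Lepob/+ 3 and 39.7 CPM in SOD1G93A 2, against 1.27 to 6.5 CPM elsewhere. In SOD1G93A-Lepob/+ against SOD1G93A, edgeR called 0 of 6 germinal centre and 0 of 8 plasma cell genes, and 0 and 3 stood at an unadjusted p under 0.05, as did 16.5% of all genes. Of these 3 plasma cell genes, Xbp1 and Sdc1 had log2 fold changes above 0, at 0.58 and 0.62, and Mzb1 had -4.66. DESeq2 on these genotypes called 2 of 6 germinal centre genes and 3 of the 7 plasma cell genes that it tested. Among genes with an adjusted p it called 8.11%.

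Genes of the follicle, the compartment that holds B cells in a lymph node, were measured as well. Clu, a secreted protein abundant in follicular dendritic cells, was at 243 to 361 CPM in the 6 lymph node rich libraries and 62.1 to 117 CPM in the 10. Ltb, the lymphotoxin by which lymphocytes maintain that stroma, was at 69.4 to 145 and 1.09 to 3.07 CPM. Cxcl13, the chemokine that draws B cells into follicles, was at 36.5 to 61.9 CPM in the 6 libraries and 2.35 to 45.4 CPM in the 10, so the ranges overlapped. Of 7 follicle genes tested, edgeR called 0 in SOD1G93A-Lepob/+ against SOD1G93A, and 4 stood at an unadjusted p under 0.05, against 16.5% of all genes. DESeq2 on these genotypes called 3 of 7, against 8.11% of genes with an adjusted p. Lists of macrophage and mammary epithelium genes overlapped between the libraries: 10 macrophage genes summed to 1644 to 4020 CPM in the 6 libraries and 1349 to 6576 CPM in the 10, and 8 mammary epithelium genes to 312 to 834 and 390 to 1212 CPM. The plasmacytoid dendritic cell list separated the libraries by its mean, at 4.22 to 5.13 log2 CPM in the 6 and 2.12 to 3.01 in the 10, but not by its sum, at 171 to 422 and 189 to 648 CPM. Named after their values were seen, Ccr9 (7.44 to 12.8 and 0 to 0.553 CPM), Pacsin1 (6.96 to 17.6 and 0.22 to 1.34) and Siglech (5.29 to 7.01 and 1.03 to 3.81) separated them. Bst2, Tcf4 and Irf7 overlapped, with Irf7 for example at 31.4 to 150 and 35.8 to 244 CPM.

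The genes closest in pattern to the members were sought among all genes tested, by the root mean square difference of centred log2 CPM from the mean of the 9 members over 16 libraries. The members themselves differed from that mean by 0.231 (Cd79a) to 1.02 (Fcmr). Among genes near them, Cxcr5, the receptor for Cxcl13 on follicular B cells, was at 0.458. Mcoln3, an ion channel of endosomes, was at 0.51, with 1 immunoglobulin kappa variable gene, Igkv17-121, at 0.564, whose reads may be split with its near copies. Ccr7, the receptor that guides lymphocytes to T cell zones, was at 0.574. Further genes were Cd5 (0.594), Chst4 (0.615), Cd6 (0.62) and Lef1 (0.631), of which Chst4 is a sulfotransferase of high endothelial venules and the other 3 belong to the T cell list. The 16 libraries share the split into 6 and 10, and the measure includes it.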

How the data were processed

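RNA was measured in 16 iWAT libraries, 4 mice per genotype as labelled, so that p-values measure the spread between these mice. Upstream, the authors filtered reads with fastp, mapped them with HISAT2 2.1.0 onto the mm10 genome and obtained gene counts with featureCounts 2.0.2 from reads that mapped to 1 place (versions from the submitters' processing notes). The deposited values are these raw counts, with no normalisation. The study and the labels name different library kits, and the strand setting and annotation release are not given in the sources used here. Symbols and exon lengths came from GENCODE M21 (GRCm38), for 54723 of 54752 IDs.

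Counts were fitted in R 4.3.3 with edgeR 4.0.16: filterByExpr (min.count 10, min.total.count 15), TMM and a robust quasi-likelihood F test on all 16 libraries, with Benjamini-Hochberg adjustment over 19736 genes in each of 5 comparisons and a threshold of 0.05. An SE is the size of the log2 fold change divided by the root of F. Log2 CPM used a prior count of 1. DESeq2 1.42.0, other scalings and filters, the compared genotypes alone, a replicate block, a stroma and venule covariate and each library left out were the alternatives, and the procedure was tested on simulated data. Members and lists were chosen with earlier results of these data known. Named were all 9 members, the 3 genes with the highest mean CPM of each other list, and the 10 genes nearest in pattern. Some genes that these rules name are not reported here. Further genes were named after their values were seen or as checks of single libraries. Fdcsp had no ID in the table.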

Additional observations from a re-analysis of the deposited data

Results flagged for a closer look

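Within each genotype, the gap of the highest or lowest library to its neighbour was divided by the range of the 4 libraries, on log2 CPM, and marked where it passed Dixon's critical value for 4 values (0.829). Of 40 such groups (9 members and their mean in 4 genotypes) 15 were marked, and chance alone marks a share of about 0.05. The groups are not independent, since the members move together over libraries. Lepob/+ 3 was the high library of Lepob/+, with ratios of 0.829 for Ms4a1, 0.845 for Cd79a, 0.854 for Pax5, 0.917 for Cd22 and 0.83 for the mean of the 9 members. SOD1G93A 3 was the low library of SOD1G93A, with ratios of 0.833 for Ms4a1, 0.891 for Cd79a, 0.856 for Cd79b, 0.907 for Pax5, 0.866 for Spib, 0.919 for Cr2, 0.916 for Fcer2a, 0.857 for Cd22 and 0.877 for the mean of the 9 members. Both are the libraries of their genotype that differ from the other 3 in stroma and venule genes, Lepob/+ 3 at 4.53 log2 CPM and SOD1G93A 3 at -2.8, and the part of these genes in the ratios was not tested. SOD1G93A-Lepob/+ 4 was marked low for Cr2 (0.851), where it had 0 counts.

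The library labelled SOD1G93A-Lepob/+ 3 held 1756 counts summed over Eif2s3y, Kdm5d, Ddx3y and Uty, which lie on the Y chromosome, and no count of Xist, while the other 15 libraries had 0 such counts and 11895 to 28034 counts of Xist. Its members stood at 0.159 to 1.36 CPM, and without it the median log2 fold change against SOD1G93A was -6.76.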

How the results depend on the processing

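Outside the lymph node rich libraries the members summed to 216 to 904 counts per library, so single genes there are imprecise, and their summed CPM still differed 4.32 times. In each comparison edgeR called 0 of 9 members under every alternative run: DESeq2 size factors, TMM without the lymphoid genes, no filter, 1 CPM in 4 libraries, the replicate block, the stroma and venule covariate, the compared genotypes alone (only 8 of the 9 were tested there in both comparisons with SOD1G93A-Lepob/+) and each library left out. DESeq2 called 9 in SOD1G93A-Lepob/+ against SOD1G93A, on all libraries and on these genotypes, and none in the other comparisons. On the compared genotypes DESeq2 gave no p for the members in SOD1G93A-Lepob/+ against Lepob/+, and the interaction could not be fitted. The count of members at an unadjusted p under 0.05 went from 9 to 0 with the covariate in SOD1G93A-Lepob/+ against SOD1G93A, against Lepob/+ and in the interaction. The covariate splits the libraries as the members do, so this fall is in part by construction. The count ranged from 0 to 9 when single libraries were left out in Lepob/+ against WT, in SOD1G93A-Lepob/+ against Lepob/+ and in the interaction, where the far value was that without Lepob/+ 3. In SOD1G93A-Lepob/+ against Lepob/+ it was also 6 without SOD1G93A-Lepob/+ 1, 3 or 4. No pairing by replicate number was seen in deviations from the genotype means, where 5 of 24 pairs of the same number correlated above 0.1 (range -0.69 to 0.52) and 1 library correlated best with its own number. These deviations also hold the differences between libraries in lymph node and muscle content, so the check cannot exclude a pairing. With the replicate block, 0 of 9 stood at an unadjusted p under 0.05 in SOD1G93A-Lepob/+ against Lepob/+ and in the interaction, and 9 of 9 against SOD1G93A.

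Some fold changes turned their direction, and the causes were not tested. Before any alternative the 9 members stood at -0.14 to 0.6 in Lepob/+ against WT and at 1.33 to 1.79 in SOD1G93A against WT. In Lepob/+ against WT, the log2 fold changes below 0 with the replicate block were Ms4a1 -1.44, Cd79a -1.42, Cd79b -0.19, Pax5 -0.61, Spib -0.77, Fcmr -1.7 and Cd22 -0.98, and with the covariate Ms4a1 -0.47, Cd79a -0.67, Fcmr -1.41 and Cd22 -0.57. Without both Lepob/+ 4 and the library labelled SOD1G93A-Lepob/+ 3, an alternative chosen after seeing the data, Cr2 0.27 and Fcer2a 0.38 were above 0. With the covariate, SOD1G93A against WT gave Ms4a1 -0.01, Cd79a -0.4, Pax5 -0.13, Spib -0.16, Fcmr -0.39, Cr2 -0.3, Fcer2a -0.58 and Cd22 -0.29, SOD1G93A-Lepob/+ against SOD1G93A gave Cd79a 0.01, SOD1G93A-Lepob/+ against Lepob/+ gave Cd79a 0.28 and Fcer2a 0.03, and the interaction gave Cd79a 0.68, Fcmr 0.13, Fcer2a 0.6 and Cd22 0.18. With single libraries left out, Lepob/+ against WT ran from -5.45 to 1.05 for Ms4a1, -6.01 to 0.84 for Cd79a, -3.87 to 0.76 for Cd79b, -4.77 to 0.95 for Pax5, -4.31 to 0.85 for Spib, -6 to 0.71 for Fcmr, -6.33 to 0.67 for Cr2, -6.82 to 0.72 for Fcer2a and -5.17 to 1.33 for Cd22. For SOD1G93A-Lepob/+ against Lepob/+ the ranges that crossed 0 were -6.22 to 0.04 for Ms4a1, -6.12 to 0.41 for Cd79a, -6.05 to 0.41 for Fcmr, -6.77 to 0.44 for Fcer2a and -5.98 to 0.2 for Cd22.

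The difference of B cell and T cell level falls when taken as log2 of summed CPM, by construction in part, since 9 genes are set against 18. It was then -0.88, -0.83, -1.99 and -0.85 in WT 1 to 4, -1.64, -1.42, -0.04 and -1.19 in Lepob/+ 1 to 4, -0.61, -0.14, -1.79 and -0.03 in SOD1G93A 1 to 4 and -1.74, -1.21, -1.8 and -1.95 in SOD1G93A-Lepob/+ 1 to 4. Taken as medians or against only Cd3d, Cd3e and Cd3g, WT 1 and 2 remained the lowest of the 6 lymph node rich libraries, from 0.08 to 0.33 against 0.35 to 1.07.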
